A study of Mus musculus with 24 samples.

Results

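The ileal response of germ-free mice to long-chain β2→1-fructan was measured in 8 of the 24 arrays of the series, 4 from mice given the fructan and 4 from mice given water, and is described over all 18820 genes with a probe set that carries a single gene symbol. These are germ-free C57BL/6OlaHsd males, 8 weeks of age, from a breeding colony, kept on the D12450B diet and dosed by gavage with 10 mg of fructan in water per day, or with water alone, for 5 days. Each array holds RNA of a piece of terminal ileum from 1 mouse. For comparison, 4 germ-free mice given short-chain β2→1-fructan and 8 conventional mice of the same strain, sex, age and diet, 4 on water and 4 on long-chain fructan, were used. For germ-free mice the long-chain fructan was sterilized by irradiation, which broke some of its longest chains, and the short-chain fructan by filtration, so chain length and sterilization cannot be told apart among these mice. The conventional mice came from a commercial supplier and received fructan that was not described as irradiated, so that microbiota, source of the mice and irradiation cannot be told apart between germ-free and conventional mice.

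Inulin-type β2→1-fructans are chains of fructose that mammalian digestive enzymes do not cleave and that gut bacteria ferment, so that germ-free mice receive the fibre without its fermentation. The terminal ileum takes up bile acids and the last of the nutrients through its enterocytes, and its wall holds Peyer's patches and smaller lymphoid follicles, which are rich in B cells. B cells carry CD20 (Ms4a1) and the receptor components Cd79a and Cd79b, and lose CD20 when they become antibody-secreting plasma cells. In a piece of whole tissue, fewer cells of a type and less RNA per cell cannot be told apart.

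Markers of the terminal ileum were high in all 8 mice: the bile acid binding protein Fabp6 was between 12.38 and 12.80 and the bile acid transporter Slc10a2 between 10.74 and 11.42 on the log2 RMA scale, the scale of every level below. Across all probe sets, pairs of water mice correlated at r = 0.985 to 0.988 and pairs of long-chain mice at r = 0.979 to 0.987. The standard deviation over genes within an array was 2.26 to 2.28 in water mice and 2.2 to 2.27 in long-chain mice, lowest in long-chain mouse 2, which also had the most extreme loading (-0.65) on the first principal component of the 12 germ-free arrays. Dim genes, with a mean log2 value below 4.5 over the 24 arrays, lay above their germ-free mean in long-chain mice 2, 3 and 4, by a median of 0.036 to 0.038, and below it in all 4 water mice, with medians of -0.029 to -0.004.

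After long-chain β2→1-fructan, the highest named calls included B cell genes such as Ms4a1 (1.78-fold), and the lowest included ileal Fgf15 (3.97-fold lower) and genes of nutrient absorption such as Slc5a4b (2.25-fold lower), with wide spread between mice. A gene was called when limma's moderated test gave an unadjusted p under 0.01 and the fold change exceeded 1.3. By this rule 161 of 18820 genes were called, which is 0.855% of all genes tested: 79 were higher (0.42%) and 82 lower (0.436%). None passed a Benjamini-Hochberg adjusted p of 0.05, and the smallest adjusted p was 0.248, while 1644 genes (8.74%) had an unadjusted p under 0.05 and 459 (2.44%) one under 0.01, 170 of these higher (0.903%) and 289 lower (1.54%). Of the 79 higher genes 58 were dim (73.4%), against 37.5% of all genes and 15 of the 82 lower genes (18.3%). The median log2 fold change over all genes was 0.00, but it fell with brightness, from 0.051 among genes with a mean log2 value up to 3 to -0.038 among those above 9. The part of this shift in the higher calls was not tested. With genes below 4.5 left out, 18 higher and 57 lower genes were called among 11759.

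**Figure D1:**
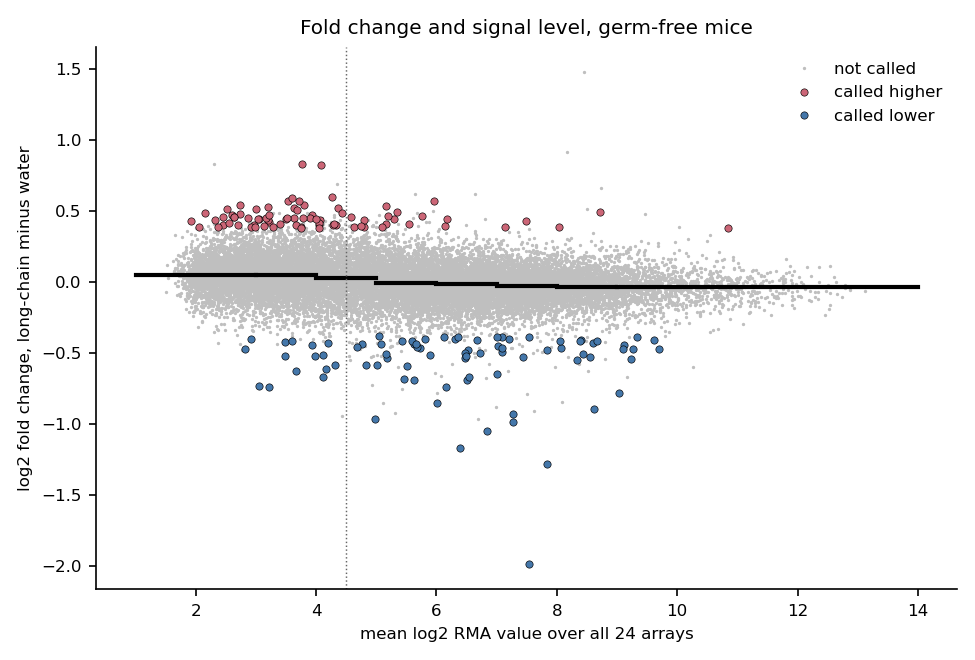
Log2 fold change of each of the 18820 genes in germ-free mice, long-chain fructan minus water, against its mean log2 RMA value over the 24 arrays; red and blue points are the genes called higher (79) and lower (82), grey points the others, black steps the median per interval of brightness, and the dotted line 4.5. Most red points lie left of the dotted line and most blue points right of it, and the black steps go from 0.051 at the dim end to -0.038 at the bright end.

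Mature B cell genes were the group with the most higher calls. Of 24 listed genes 22 were measured, 7 of them were called higher (0.42% of all genes were), none lower, and 15 were not called; 19 of the 22 fold changes were positive. Their median log2 fold change was 0.30, against 0.03 over the 8784 genes within the same range of brightness. Ms4a1 (CD20, chr19:11249679-11266149 on GRCm38.p6), the B cell surface protein that the study singles out, was 3.81, 3.56, 3.29 and 3.25 in water mice 1 to 4 and 3.91, 3.40, 4.93 and 5.00 in long-chain mice 1 to 4. Long-chain mice 3 and 4 lay far above all other mice, long-chain mouse 1 was just above the highest water mouse, and long-chain mouse 2 lay among the water mice. The mean was 4.31 ± 0.78 (SD, n = 4) after the fructan and 3.48 ± 0.26 (SD, n = 4) after water, 1.78-fold higher (log2 0.83 ± 0.24 SE, limma unadjusted p = 0.00153, adjusted p = 0.355; exact two-sided permutation p = 0.114). Ighd, which the study also names, was not analysed here. The means of the 7 called genes over the water mice ran from 2.58 (Cr2) to 5.23 (Cd37), and 6 of the 7 were below 4.5. Detection calls were not used, so whether such levels lie above background was not tested.

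Pax5 (chr4:44524748-44710694), the transcription factor that sets B cell identity, was 2.95, 3.09, 3.15 and 3.09 in water mice 1 to 4 and 3.21, 3.43, 3.94 and 3.82 in long-chain mice 1 to 4. Fcmr (chr1:130865777-130880790), the receptor for IgM, was 4.16, 3.93, 3.94 and 4.17 in water mice 1 to 4 and 4.31, 4.5, 5.25 and 4.54 in long-chain mice 1 to 4. For both genes every long-chain mouse was above every water mouse, with long-chain mouse 3 highest. Pax5 was 1.44-fold higher (log2 0.53 ± 0.13 SE, limma unadjusted p = 0.000285) and Fcmr 1.52-fold higher (log2 0.60 ± 0.16 SE, limma unadjusted p = 0.000618), each with an adjusted p of 0.299 and an exact two-sided permutation p of 0.0286, the smallest that 4 against 4 mice can give. These were the members of the list whose call held without any 1 of the 8 mice.

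The starts of both genes are shown because they are the B cell genes with the steadiest calls whose upstream bases lie outside the annotated gene; these are the 200 bases before the RefSeq start on GRCm38.p6, 5′ to 3′. No capitals are set, since the octamer ATGCAAAT, the EBF-type CCCNNGGG and the ETS-type GAGGAAGT, searched on both strands, do not occur in these windows. Among 32851 promoter windows of this length, 1.38% hold the octamer, 9.91% the EBF-type and 2.06% the ETS-type letters. Of 5 called B cell genes with a window, inside the annotated gene or not, 1 held the EBF-type letters, 1 the ETS-type and none the octamer.
Fcmr (chr1:130865577-130865776, plus strand): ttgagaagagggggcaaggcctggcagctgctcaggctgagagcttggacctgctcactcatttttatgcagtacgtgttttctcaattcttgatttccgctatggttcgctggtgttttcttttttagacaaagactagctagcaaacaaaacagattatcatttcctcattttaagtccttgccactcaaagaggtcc
Pax5 (chr4:44710695-44710894, minus strand): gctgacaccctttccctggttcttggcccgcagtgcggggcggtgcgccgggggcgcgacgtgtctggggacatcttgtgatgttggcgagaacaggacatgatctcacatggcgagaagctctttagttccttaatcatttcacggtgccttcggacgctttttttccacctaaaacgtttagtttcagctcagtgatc

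Cr2 (chr1:195136811-195176880), the complement receptor CD21 of mature and follicular B cells, was 2.56, 2.50, 2.66 and 2.60 in water mice 1 to 4 and 2.53, 2.71, 3.58 and 3.68 in long-chain mice 1 to 4. The 2 high mice were again long-chain mice 3 and 4, and the groups overlapped because long-chain mouse 1 was at the level of water. Cr2 was 1.46-fold higher (log2 0.55 ± 0.17 SE, limma unadjusted p = 0.00303). Bank1 (chr3:136053363-136326141), a scaffold protein of B cell receptor signalling, was 3.93, 3.93, 4.17 and 4.14 in water mice 1 to 4 and 4.29, 4.21, 4.71 and 5.03 in long-chain mice 1 to 4, without overlap of the groups and 1.43-fold higher (log2 0.52 ± 0.16 SE).

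Cd79b (chr11:106311341-106314562), the signalling chain of the B cell receptor, was 4.22, 4.19, 4.57 and 4.5 in water mice 1 to 4 and 4.65, 4.62, 5.01 and 4.95 in long-chain mice 1 to 4. All 4 long-chain mice were above all water mice, though by a narrow margin, and the gene was 1.35-fold higher (log2 0.44 ± 0.14 SE, limma unadjusted p = 0.00576). Its partner Cd79a was 4.12, 4.41, 4.56 and 4.81 in water mice 1 to 4 and 4.24, 3.93, 5.36 and 5.98 in long-chain mice 1 to 4; it was not called, and long-chain mice 3 and 4 were the highest and long-chain mouse 2 the lowest of the 8. Cd37 (chr7:45233632-45239340), a tetraspanin of mature B cells, was called at 1.38-fold (log2 0.46 ± 0.14 SE), with long-chain mouse 2 at 5.35, below the 5.47 of water mouse 4. Of the 15 members that were not called, Cd22, Tnfrsf13c (the BAFF receptor) and Blk had an unadjusted p under 0.05, with log2 values of 0.31, 0.45 and 0.36, while Cd72 and Pou2af1 were at -0.02 and 0.00. In the whole list 3 fold changes were negative, the lowest at log2 -0.23. After cyclic loess normalization, 1 member was lower at a limma unadjusted p under 0.05. The same count was found without long-chain mouse 1, long-chain mouse 3 or water mouse 2.

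Over the 22 genes, the mean level per mouse was 4.12, 4.14, 4.23 and 4.30 in water mice 1 to 4 and 4.28, 4.20, 4.74 and 4.75 in long-chain mice 1 to 4. Long-chain mice 3 and 4 were above all water mice, and mice 1 and 2 lay within the range of water. Without long-chain mouse 3, or without long-chain mouse 4, 2 of the 22 genes were called (without mouse 3 the log2 fold change of Ms4a1 was 0.63, without mouse 4 it was 0.60), while leaving out long-chain mouse 2 gave 8 calls. In 4 of the 22 genes every long-chain mouse was above every water mouse, as in 1.51% of all genes tested. When only the 8 arrays compared were fitted, Ms4a1, Cr2 and Cd37 were not called. Cr2 and Cd37 were also not called when the 12 germ-free arrays were fitted, nor was Cd79b with array weights. Pax5, Fcmr and Bank1 kept their calls under every alternative other than leaving out a mouse.

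**Figure D2:**
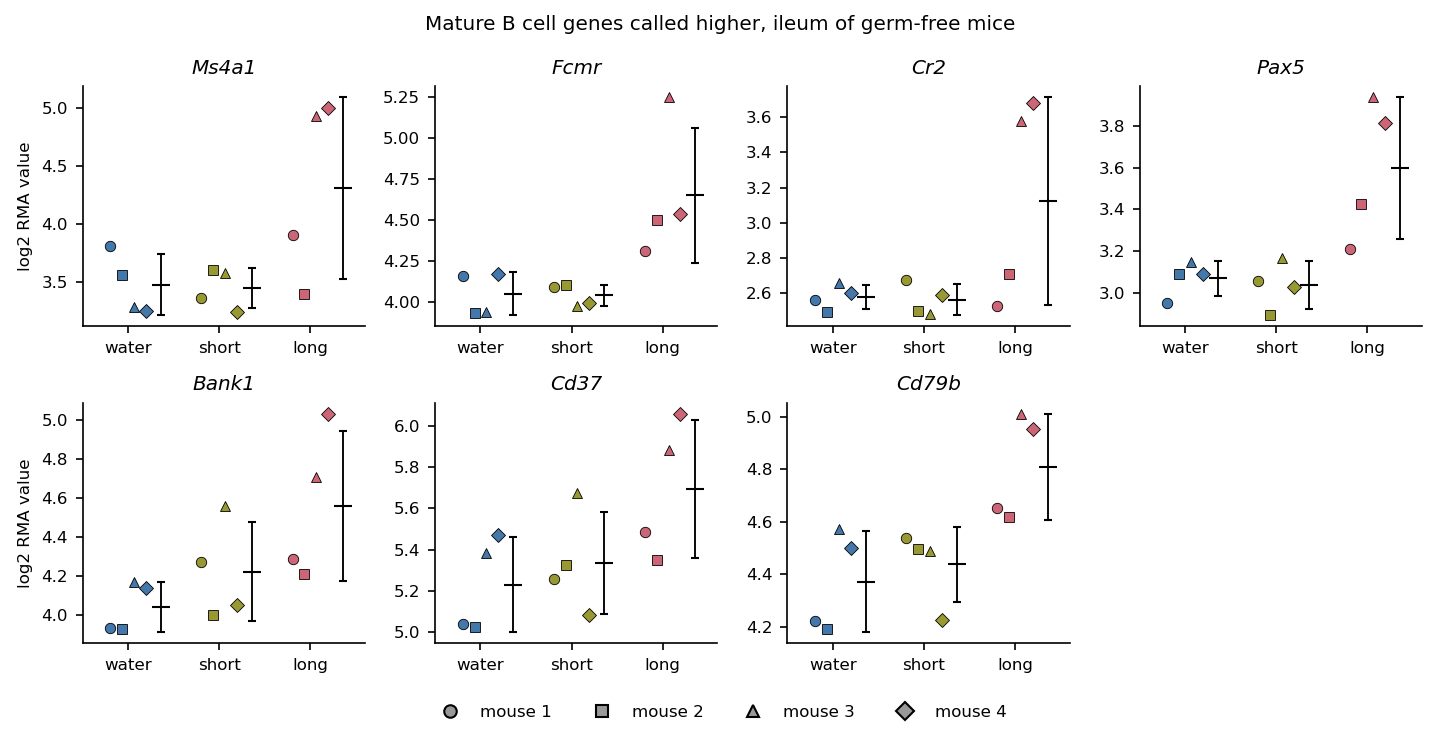
Log2 RMA values of the 7 mature B cell genes called higher in germ-free mice given water, short-chain or long-chain fructan; each symbol is 1 mouse, its shape the mouse number within the group, and the bars show mean and SD (n = 4). In all 7 panels the triangle and diamond of the long-chain group (mice 3 and 4) lie above all water mice, and for Ms4a1 and Cr2 they stand apart from long-chain mice 1 and 2.

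No other list of the B cell lineage held a gene called higher. None of 15 genes of B cell receptor signalling was called (median log2 0.03), nor any of 11 germinal centre genes (median 0.02). In each list 1 gene had a limma unadjusted p under 0.05, and both were lower (4.95% of all genes were). They were Bcl10 (log2 -0.285 to -0.171 with each mouse left out) and the germinal centre gene Neil1 (-0.424 to -0.308). Neil1 had a limma unadjusted p under 0.01 but lay below the fold threshold. Of 14 genes of plasma cells, 1 was called, and it was lower: Mzb1, a chaperone of antibody secretion, was 4.79, 4.76, 3.98 and 4.35 in water mice 1 to 4 and 4.22, 3.37, 4.27 and 3.68 in long-chain mice 1 to 4. The 2 lowest mice were long-chain mice 2 and 4, and the groups overlapped (1.5-fold lower, log2 -0.59 ± 0.19 SE). Without long-chain mouse 2 or 4, or without water mouse 1 or 2, the call was lost, and the log2 fold change without long-chain mouse 2 was -0.41.

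Immunoglobulin genes varied more between water mice than between the groups. Igha, the heavy chain of IgA, was 5.45, 8.19, 8.13 and 5.90 in water mice 1 to 4 and 6.91, 5.21, 6.28 and 5.62 in long-chain mice 1 to 4; water mice 2 and 3 were the highest of all 8 and water mouse 1 was among the lowest (log2 -0.91 ± 0.57 SE, not called). Ighm and Ighg3 were highest in water mouse 2, at 8.07 and 8.48. Without that mouse their log2 fold changes turned from -0.33 and -0.18 to 0.12 and 0.33. A probe set shared by the lambda genes Iglv1, Iglc1 and Iglv2, left out of the fit because it names several genes, was at 7.04, 6.95, 5.09 and 7.84 in water mice 1 to 4 and 4.85, 5.63, 5.26 and 5.65 in long-chain mice 1 to 4. Water mice 1, 2 and 4 were above all long-chain mice, and water mouse 3 among them (exact two-sided permutation p = 0.114).

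Other immune lists showed few or no calls. None was called among 20 T cell genes (10 positive and 10 negative, median log2 0.00), 18 genes of intraepithelial and cytotoxic lymphocytes, 14 of follicle stroma and chemokine signals, 13 of the follicle-associated epithelium, 22 of macrophages and dendritic cells or 10 of MHC class II presentation, and each of these lists held between 0 and 2 genes with an unadjusted p under 0.05. Il7r and Cd4 of the T cell list had log2 values of -0.27 and -0.27 with unadjusted p of 0.0374 and 0.0457, and Cd4 was lower in all 4 long-chain mice (5.93 to 6.17) than in any water mouse (6.23 to 6.43). Among 26 interferon-stimulated genes none was called, 2 had an unadjusted p under 0.05 (4.95% of all genes did in this direction) and 23 fold changes were negative, with a median log2 of -0.15 against -0.01 over genes of the same brightness. Without water mouse 2 the median was -0.07. The members with the smallest p were the RNA sensors Ifih1 (log2 -0.24) and Ddx58 (log2 -0.32). Of 23 pattern recognition receptors, through which microbial and some plant glycans are sensed, none was called, 1 had an unadjusted p under 0.05 (Tlr3, log2 -0.29) and 19 were negative (median log2 -0.10).

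Ido1 (chr8:24584133-24596952), the interferon-inducible enzyme that degrades tryptophan, was called lower. It was 5.74, 4.97, 4.56 and 5.68 in water mice 1 to 4 and 4.58, 4.48, 4.29 and 4.19 in long-chain mice 1 to 4. The long-chain mice lay close together and water mice 1 and 4 well above them, while water mouse 3 fell within their range (1.80-fold lower, log2 -0.85 ± 0.24 SE; -0.68 without water mouse 1 and -0.70 without water mouse 4, when it was not called). Parp14, Cmpk2 and Slfn4, which interferon also induces and which were picked after their values were seen, were called lower as well, by 0.41 to 0.48 on the log2 scale as 1.33-fold, 1.40-fold and 1.37-fold.

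Fgf15 (chr7:144896532-144900953), the hormone by which ileal enterocytes report bile acid uptake to the liver, was the gene with the lowest fold change of all called genes. It was 8.98, 5.47, 7.86 and 6.93 in water mice 1 to 4 and 6.29, 4.54, 5.57 and 4.89 in long-chain mice 1 to 4. The fructan mice were low throughout, but water mice ranged from 5.47 to 8.98 and water mouse 2 lay among the fructan mice. The mean fell from 7.31 ± 1.49 (SD, n = 4) to 5.32 ± 0.77 (SD, n = 4), 3.97-fold lower (log2 -1.99 ± 0.56 SE, limma unadjusted p = 0.00151, adjusted p = 0.355; exact two-sided permutation p = 0.0857). Without water mouse 1 the log2 value was -1.43 and the gene was not called. Of the 11 measured genes of bile acid transport and FXR, the bile acid receptor, it was the only one called. Fabp6 was at log2 -0.16 (limma unadjusted p = 0.00966, below the fold threshold), the transporter Abcc2 at -0.54, and the uptake transporter Slc10a2 at 0.00. Of the 11 fold changes 7 were negative and 4 positive, with a median log2 of -0.10. At a limma unadjusted p under 0.05, 3 genes were lower and 1 higher, against 4.95% and 3.78% of all genes. The higher one was Abcb11, at log2 0.18 to 0.309 with each mouse left out.

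Genes of lipid absorption were lower as a group in sign, but mostly by less than the fold threshold. Of 18 measured genes 2 were called lower, none higher; 16 fold changes were negative, and 10 had an unadjusted p under 0.01 at any fold, against 1.54% of all genes in this direction. The median log2 fold change was -0.26, against -0.03 over the 7436 genes of the same brightness. Abcg8, which with Abcg5 pumps sterols back into the lumen, was 10.00, 9.34, 9.45 and 9.59 in water mice 1 to 4 and 9.32, 9.17, 9.07 and 9.19 in long-chain mice 1 to 4. Every long-chain mouse was below every water mouse, as in 1.76% of all genes and in 3 genes of this list, and the fall was 1.33-fold (log2 -0.41 ± 0.10 SE, limma unadjusted p = 0.000386). Apoc2, the apolipoprotein that activates lipoprotein lipase, was 7.51, 7.51, 6.82 and 7.45 in water mice 1 to 4 and 7.14, 6.07, 6.49 and 7.0 in long-chain mice 1 to 4 (1.56-fold lower, log2 -0.65 ± 0.18 SE). Long-chain mice 2 and 3 were below all water mice, and mice 1 and 4 below 3 of them.

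Among the members under the fold threshold, Mogat2 and Dgat1, which rebuild triglycerides in the enterocyte, were at log2 -0.35 ± 0.09 and -0.33 ± 0.09 SE (unadjusted p = 0.000786 and 0.000788). Apoa1 was lower in all 4 long-chain mice (12.34 to 12.53) than in any water mouse (12.57 to 12.75), by log2 -0.19 ± 0.05 SE, and Fabp2 likewise by -0.24. Fabp1 had a larger mean difference (log2 -0.97 ± 0.59 SE) but was not called, since long-chain mouse 1 was the highest of the 8 at 8.77 and long-chain mouse 2 the lowest at 5.19. The mean level of the 18 genes was 9.98, 9.74, 9.63 and 9.76 in water mice 1 to 4 and 9.77, 9.17, 9.56 and 9.45 in long-chain mice 1 to 4; water mouse 1 stood highest and long-chain mouse 2 lowest. Without long-chain mouse 2, or without water mouse 1, 5 of the 18 had an unadjusted p under 0.01 and the median log2 value was -0.18 or -0.20, and Abcg8 was not called after cyclic loess normalization, nor without water mouse 1 (log2 -0.27) or long-chain mouse 3 (log2 -0.37). Apoc2 was not called without long-chain mouse 2 (log2 -0.44).

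Brush border enzymes and villus genes were lower in all 20 measured members, yet none was called. Their median log2 fold change was -0.15, against -0.02 over genes of the same brightness, and 9 had an unadjusted p under 0.05 (4.95% of all genes in this direction). The peptidases Mep1a and Xpnpep2 had the smallest p (log2 -0.21 and -0.29). Lct, the lactase, was 7.37, 4.03, 4.29 and 4.88 in water mice 1 to 4 and 4.36, 4.06, 3.88 and 4.5 in long-chain mice 1 to 4, so that its log2 value of -0.94 rested on water mouse 1. Without water mouse 1, 1 of the 20 genes had an unadjusted p under 0.05 and the median was -0.10; after cyclic loess normalization 3 had.

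Of 16 genes of sugar transport and fructose metabolism 2 were called lower (0.436% of all genes were) and no fold change was positive (median log2 -0.19, against -0.03 over genes of the same brightness). Without water mouse 1 the median was -0.11, and no gene of the list was called without that mouse, without long-chain mouse 2 or without long-chain mouse 3. Slc5a4b, a sugar-sensing relative of the sodium glucose transporters, was 8.99, 8.24, 6.99 and 8.58 in water mice 1 to 4 and 7.86, 6.42, 6.54 and 7.30 in long-chain mice 1 to 4. Water mouse 3 fell within the range of the fructan mice, and the other 3 water mice were above it (2.25-fold lower, log2 -1.17 ± 0.34 SE, limma unadjusted p = 0.002; not called without water mouse 1, at -0.91, or without long-chain mouse 2 or 3, at -0.97 and -1.01). Fbp1, a gluconeogenic enzyme, was 6.10, 5.99, 5.98 and 5.58 in water mice 1 to 4 and 5.44, 5.27, 5.49 and 5.60 in long-chain mice 1 to 4 (1.38-fold lower, log2 -0.46 ± 0.16 SE). Its call was lost without any 1 of 6 of the mice. Khk, which phosphorylates fructose, was at log2 -0.33 (limma unadjusted p = 0.0178), and the fructose transporter Slc2a5 at -0.28 (limma unadjusted p = 0.138).

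Enpp7, the alkaline sphingomyelinase of the brush border, was 10.60, 8.24, 8.00 and 9.51 in water mice 1 to 4 and 8.68, 6.47, 7.88 and 8.20 in long-chain mice 1 to 4. Long-chain mouse 1 lay above water mice 2 and 3, so the groups overlapped widely (2.43-fold lower, log2 -1.28 ± 0.42 SE). The call was lost without long-chain mouse 2 (log2 -0.83), long-chain mouse 3 (-1.30), water mouse 1 (-0.78) or water mouse 4 (-1.14). Cyp3a13, the only called gene of 22 of xenobiotic metabolism, was 9.95, 9.66, 9.10 and 9.56 in water mice 1 to 4 and 9.16, 9.08, 9.08 and 9.07 in long-chain mice 1 to 4. The 4 fructan mice were nearly identical and 3 water mice were above all of them (1.38-fold lower, log2 -0.47 ± 0.11 SE; -0.34 without water mouse 1, below the fold threshold). Of the 22 genes of xenobiotic metabolism 18 were negative (median log2 -0.20), and 7 were lower at an unadjusted p under 0.05, against 4.95% of all genes. Their mean level was highest in water mouse 1 (7.74) and lowest in long-chain mouse 2 (7.12), and the groups overlapped. Tm4sf4 (chr3:57425410-57441677), a tetraspanin-like membrane protein, was 10.66, 9.79, 9.02 and 9.97 in water mice 1 to 4 and 9.38, 8.45, 8.88 and 9.13 in long-chain mice 1 to 4; water mouse 3 was the only one of its group below a fructan mouse (1.86-fold lower, log2 -0.90 ± 0.20 SE), and the call held without any 1 of the 8 mice. None of 18 PPAR-alpha targets was called (16 negative, median log2 -0.15, 4 with an unadjusted p under 0.05, against 4.95% of all genes in this direction). Without long-chain mouse 2 the median was -0.05, 12 were negative and none had such a p, and without long-chain mouse 1, 3 were called lower. Ppara itself, picked after its values were seen, was called at 1.31-fold lower.

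**Figure D3:**
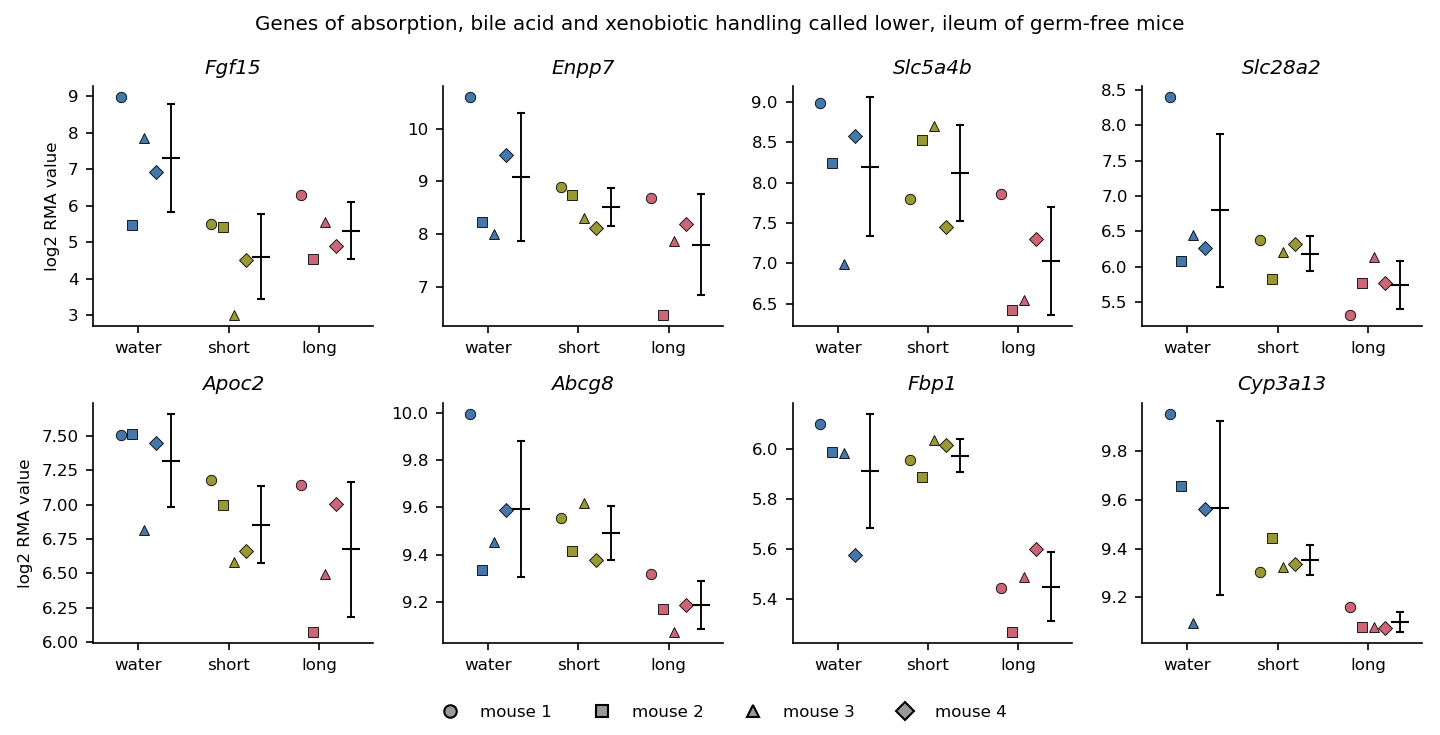
Log2 RMA values of 8 genes of absorption, bile acid feedback, nucleoside uptake and xenobiotic metabolism called lower in germ-free mice given long-chain fructan; symbols are mice, shapes their number within the group, bars mean and SD (n = 4), and the short-chain mice are shown between. Water mouse 1 (circle) is the highest water mouse in each panel but Apoc2, where it is level with water mouse 2, and only for Abcg8 does no long-chain mouse reach the range of water.

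The bases before the starts of 4 of these genes are shown (200 bases, RefSeq, GRCm38.p6, 5′ to 3′). For these genes a promoter window was available and lay outside the annotated gene. Fgf15 had no window in the promoter sequences used. Capitals mark matches, on either strand, to the HNF4-type letters CAAAGT, the GATA-type letters TGATAA or the CDX-type letters TTTATG, which occur in 9.84%, 6.18% and 8.51% of 32851 promoter windows of this length. In Apoc2 an HNF4-type and a GATA-type match lie side by side and share 1 base; Slc5a4b holds none of the 3.
Apoc2 (chr7:19677942-19678141, minus strand): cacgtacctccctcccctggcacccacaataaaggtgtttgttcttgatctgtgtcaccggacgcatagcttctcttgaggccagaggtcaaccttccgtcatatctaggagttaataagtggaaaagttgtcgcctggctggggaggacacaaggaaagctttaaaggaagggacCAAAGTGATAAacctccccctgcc
Enpp7 (chr11:118987981-118988180, plus strand): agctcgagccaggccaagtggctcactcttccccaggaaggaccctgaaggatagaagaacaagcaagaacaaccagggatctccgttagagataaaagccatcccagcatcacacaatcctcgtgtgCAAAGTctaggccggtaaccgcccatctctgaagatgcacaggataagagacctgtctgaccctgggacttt
Tm4sf4 (chr3:57425210-57425409, plus strand): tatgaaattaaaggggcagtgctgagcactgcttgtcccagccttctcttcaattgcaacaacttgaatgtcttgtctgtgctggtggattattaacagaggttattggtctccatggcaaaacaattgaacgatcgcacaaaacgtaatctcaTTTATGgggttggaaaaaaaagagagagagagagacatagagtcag
Slc5a4b (chr10:76111019-76111218, minus strand): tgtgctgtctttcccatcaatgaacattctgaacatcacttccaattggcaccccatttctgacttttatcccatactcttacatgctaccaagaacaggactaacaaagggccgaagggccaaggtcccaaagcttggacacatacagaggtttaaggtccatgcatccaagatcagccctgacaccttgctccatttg
Over the 53 genes called lower that have such a window, 8 (15.1%) held the HNF4-type letters, 6 (11.3%) the GATA-type and 4 (7.55%) the CDX-type. Over the 57 genes called higher, 5 (8.77%), 6 (10.5%) and 9 (15.8%) did.

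Slc28a2 (chr2:122426357-122461152), a sodium-coupled transporter of purine nucleosides, was 8.40, 6.08, 6.44 and 6.27 in water mice 1 to 4 and 5.31, 5.76, 6.14 and 5.77 in long-chain mice 1 to 4. It was 2.07-fold lower (log2 -1.05 ± 0.31 SE), but water mouse 1 stood far above the other water mice. The gene was not called without that mouse (log2 -0.52) or without long-chain mouse 1 (log2 -0.90). Ada, which deaminates adenosine, was 1.71-fold lower (log2 -0.78 ± 0.27 SE), with water mice between 8.47 and 9.97 and long-chain mice between 7.53 and 8.87; it was not called without water mouse 1 (log2 -0.45) or 3 (-0.76), or without long-chain mouse 2 (-0.55) or 4 (-0.74). Xdh, Gda and Cda, enzymes that break down purines or pyrimidines and were picked after their values were seen, were called at 1.44-fold, 1.39-fold and 1.35-fold lower. Xdh was 8.70, 8.32, 8.02 and 8.41 in water mice 1 to 4 and 8.17, 7.81, 7.64 and 7.74 in long-chain mice 1 to 4, so that only long-chain mouse 1 reached the water mice.

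The remaining called genes with the lowest fold changes included Bst1 (CD157, log2 -0.98), Acot12, an acetyl-CoA hydrolase (log2 -0.96), the carboxylesterase Ces2b (log2 -0.74), the adhesion molecule Ceacam2 (log2 -0.69) and Macrod2 (log2 -0.69), all with overlapping groups. Without water mouse 1, Bst1 was at -0.51, Acot12 at -0.52, Ces2b at -0.48 and Ceacam2 at -0.44, and none of the 4 was called. Macrod2 was not called without long-chain mouse 2 (-0.48), 3 (-0.72) or 4 (-0.60) or water mouse 3 (-0.57) or 4 (-0.49). Of 9 alternatives other than leaving out a mouse, the call held in 1 for Macrod2 and in 2 for Ces2b. Apol7a of the apolipoprotein L family, 5 members of which were measured, was 8.16, 6.97, 6.99 and 7.29 in water mice 1 to 4 and 7.13, 6.02, 6.38 and 6.14 in long-chain mice 1 to 4. It was 1.91-fold lower (log2 -0.93 ± 0.22 SE), and its call held without any 1 of the 8 mice. Of the 5 members 4 were negative and 1 was positive. The positive one, Apol8, was at log2 0.32 with a limma unadjusted p under 0.05. Apol8 was not called, except as higher when long-chain mouse 1 was left out. Gpr31b (chr17:13051321-13052280), a receptor for bacterial and lipid metabolites, was 4.81, 5.08, 5.04 and 5.10 in water mice 1 to 4 and 4.67, 4.30, 4.66 and 4.08 in long-chain mice 1 to 4; the groups did not overlap and it had the smallest p of all genes (1.5-fold lower, log2 -0.58 ± 0.12 SE, limma unadjusted p = 5.31e-05, adjusted p = 0.248).

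The genes with the highest fold changes outside the B cell list were, like most of the called B cell genes, mostly dim. Usp17ld, a deubiquitinase of a multicopy family, was 3.46, 3.48, 3.88 and 4.21 in water mice 1 to 4 and 4.72, 3.82, 5.00 and 4.79 in long-chain mice 1 to 4 (1.77-fold higher, log2 0.82 ± 0.24 SE), so that 3 of the 4 long-chain mice were above all water mice. Htr3b, a subunit of the serotonin-gated channel, was 3.16, 2.96, 2.79 and 3.25 in water mice 1 to 4 and 3.62, 3.52, 3.51 and 3.78 in long-chain mice 1 to 4, without overlap (1.48-fold higher, log2 0.57 ± 0.15 SE). Klk1b24, Slc22a20, Pou3f3 and the pregnancy-specific glycoprotein Psg19 were called at log2 0.59, 0.57, 0.54 and 0.51, with means over the water mice between 2.43 and 3.61. For these levels too, whether they lie above background was not tested. Of 990 olfactory receptor genes, 9 were called higher and 2 lower (0.42% and 0.436% of all genes were), with a median log2 fold change of 0.05, and of 13 exocrine pancreas genes only the trypsin gene Try4 was, at a mean of 2.10 after the fructan.

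Fewer higher calls were above the dim limit of 4.5. Lrg1, a secreted glycoprotein of the acute-phase response, was 4.57, 5.17, 4.95 and 4.99 in water mice 1 to 4 and 5.53, 5.27, 5.32 and 5.69 in long-chain mice 1 to 4, without overlap (1.45-fold higher, log2 0.53 ± 0.15 SE; 0.42 without water mouse 1, when it was not called). Frmd6, a scaffold protein of the Hippo pathway, was at log2 0.57, and Creb3l1, a membrane-bound transcription factor of secretory cells and the only called gene of 13 goblet cell genes, at 0.39. Creb3l1 lost its call without any 1 of 5 mice and Frmd6 without any 1 of 3. Smooth muscle genes were positive in 17 of 17 (median log2 0.18, against -0.03 over genes of the same brightness) and enteric neuron and glia genes in 15 of 17 (median 0.17), without a call in either list. In these lists 2 and 3 genes were higher at an unadjusted p under 0.05, against 3.78% of all genes in this direction. Without water mouse 2 the median of the neuron and glia list was 0.07, and no gene of it had an unadjusted p under 0.05. For smooth muscle the median was 0.01 without water mouse 2, whose mean level over the list was 8.07, against 8.59 to 8.93 in the other water mice and 8.69 to 8.78 after the fructan. Of 22 cell cycle genes 20 were positive (median log2 0.11), none was called and none had an unadjusted p under 0.05. Without water mouse 2, 14 of the 22 were positive and the median was 0.03, and after cyclic loess normalization 6 genes had an unadjusted p under 0.05. The lists of adipocyte, fibroblast and endothelium, enteroendocrine, tuft, Paneth and stem cell genes also held no called gene, and 0 to 2 genes each with an unadjusted p under 0.05. Among 13 adipocyte genes the median log2 was 0.22, but it was -0.03 without water mouse 1, with 9 of 13 negative, and 0.09 without water mouse 4. It was 0.08 without long-chain mouse 1 and 0.07 without long-chain mouse 3, so the list has no settled direction.

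**Figure D4:**
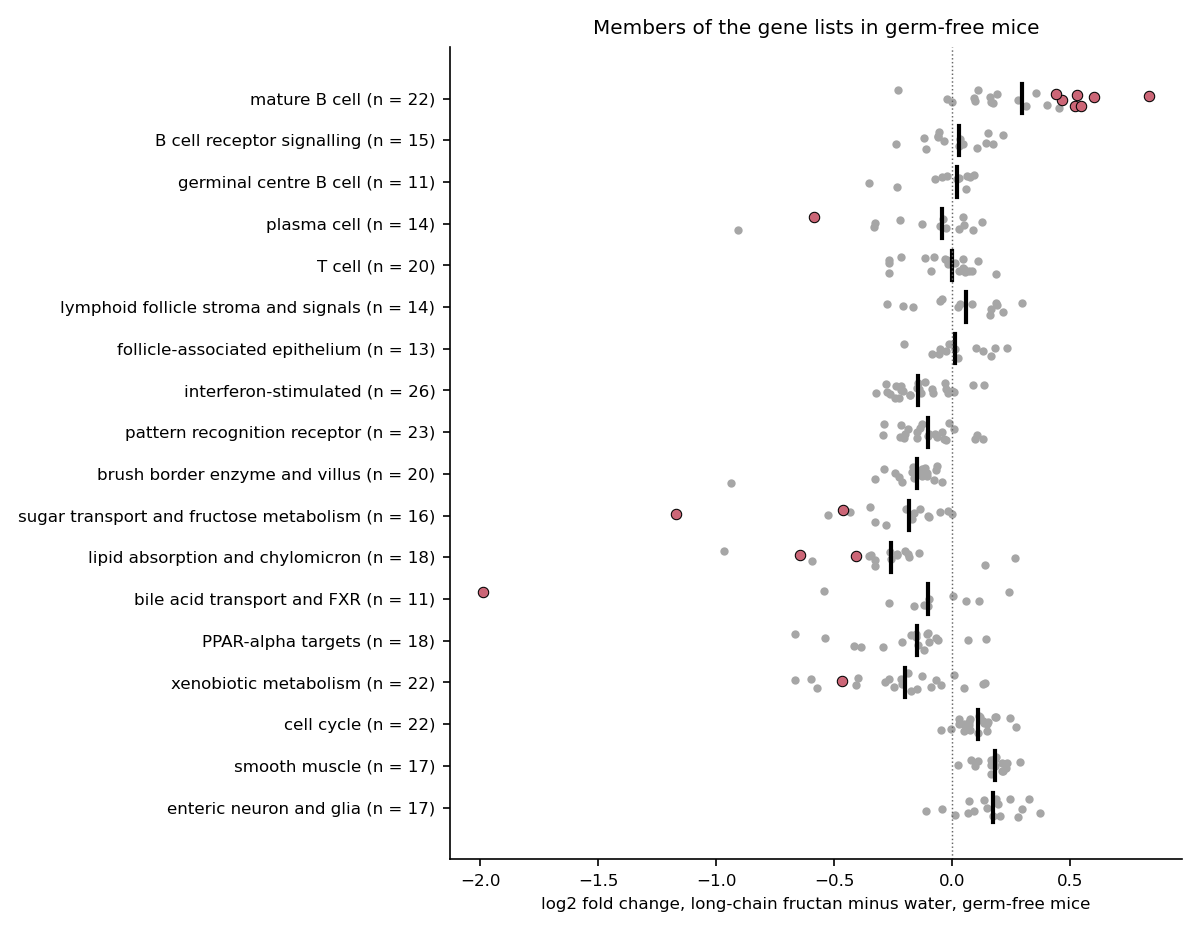
Log2 fold change in germ-free mice, long-chain fructan minus water, of each measured member of 18 gene lists; red points are called genes, grey points the others, and the black bar is the median of the list. The B cell list lies to the right of 0 with 7 called genes, the lists of absorption lie to the left, and smooth muscle lies to the right without a called gene.

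Among 364 microRNA and small nucleolar RNA genes 2 were called, Mir30e lower and Mir299a higher, which is no larger a share than the 0.855% of all genes. Their mature sequences from RefSeq (GRCm38.p6) are shown with the seed, bases 2 to 8, in capitals, because they identify which microRNAs these probe sets belong to; the array reads the gene locus and does not tell mature from precursor RNA. They were picked after their values were seen.
miR-30e-5p: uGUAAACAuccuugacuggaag
miR-30e-3p: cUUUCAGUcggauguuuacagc
miR-299a-5p: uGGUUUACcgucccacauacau
miR-299a-3p: uAUGUGGGacgguaaaccgcuu
No seed is shared among the 4. Mir30e was 4.93, 4.82, 4.55 and 4.31 in water mice 1 to 4 and 4.11, 3.75, 3.98 and 4.42 in long-chain mice 1 to 4; long-chain mouse 4 lay above water mouse 4, and the other fructan mice below all water mice (1.5-fold lower, log2 -0.59 ± 0.17 SE). Mir299a was 2.37, 2.35, 2.13 and 2.38 in water mice 1 to 4 and 2.30, 3.38, 2.81 and 2.56 in long-chain mice 1 to 4; long-chain mice 2, 3 and 4 were above all water mice (1.37-fold higher, log2 0.45 ± 0.16 SE).

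Long-chain and short-chain fructan were then compared within germ-free mice, at the same dose and time, to ask which genes differ between the fructans, bearing in mind that the long chain was irradiated and the short chain filtered, so that chain length and sterilization cannot be told apart. By the same rule 265 genes were called (1.41% of those tested), 139 higher (0.739%), of which 107 were dim, and 126 lower (0.67%), with no adjusted p under 0.05; 2392 genes had an unadjusted p under 0.05. Of the mature B cell genes, 5 were higher after the long than after the short chain. Ms4a1 was between 3.25 and 3.61 in short-chain mice, below long-chain mice 1, 3 and 4, and the difference was log2 0.86 (95% interval 0.38 to 1.34, limma unadjusted p = 0.00111). Pax5, Fcmr, Cr2 and Tnfrsf13c differed by log2 0.56, 0.61, 0.56 and 0.65. For Ms4a1, Pax5, Fcmr and Cr2 the values after the short chain were close to those after water. The fitted short-chain minus water values were -0.03 for Ms4a1, -0.03 for Pax5, -0.01 for Fcmr and -0.02 for Cr2. Tnfrsf13c was lower after the short chain than after water, so part of its difference between the fructans lies there. Both comparisons share the water or the long-chain mice, so they are set side by side only.

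Among the lower genes, Slc5a4b was between 7.45 and 8.70 in short-chain mice, near the water mice, and was log2 -1.09 after the long chain relative to the short (95% interval -1.79 to -0.39). The apolipoprotein L genes Apol7c and Apol7a differed by -0.87 and -0.72, and the nuclear-receptor target Vnn1 by -0.80. The predicted gene Gm5431 differed by -1.08. Highest beside Ms4a1 were the small nucleolar RNA Snora61 (log2 0.97) and the receptor Gprc5a (log2 0.68), which was lower after the short chain than after water (log2 -0.71) and at -0.03 after the long chain. The long-chain against short-chain difference of Fgf15 was not resolved: short-chain mice were at 5.51, 5.43, 3.0 and 4.51, so that it was low after either fructan, and the long-minus-short value was log2 0.71 (95% interval -0.44 to 1.86), which leaves a difference of either sign possible. For Enpp7 the interval was -1.58 to 0.16 and for Apoc2 -0.56 to 0.20, so that either sign is possible for these too. Unlike them, Abcg8 had an interval of only negative values, -0.51 to -0.10.

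The same response was compared with that of conventional mice, in which 59 genes were called for long-chain fructan against water (0.313%), 31 higher and 28 lower. In both, 4 genes were called in the same direction, 2.48% of the germ-free and 6.78% of the conventional calls, and none in opposite directions: Csf2rb2, a cytokine receptor chain, was higher (log2 0.49 germ-free and 0.60 conventional), and Fbp1 (-0.46 and -0.50), the organic cation exporter Slc47a1 (-0.52 and -0.51) and Ttc39c (-0.67 and -0.41) were lower. The germ-free and conventional comparisons share no mice. The difference between the 2 responses, tested as an interaction, called 100 genes (0.531%), 65 with a higher germ-free value and 35 with a lower, none at an adjusted p of 0.05. Fewer genes had an unadjusted p under 0.01 than the 188.2 that chance gives over 18820 tests, namely 115, and 704 had one under 0.05.

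For Gpr31b the difference was log2 -0.91 (95% interval -1.26 to -0.56, limma unadjusted p = 1.41e-05): it was 5.01 ± 0.14 on water and 4.43 ± 0.29 on fructan in germ-free mice, and 5.13 ± 0.16 and 5.46 ± 0.15 in conventional mice (SD, n = 4 each). Tm4sf4 fell in germ-free mice from 9.86 to 8.96, and was 7.89 and 7.83 in conventional mice, a level no germ-free mouse reached (difference log2 -0.85). The ubiquitin-like gene Ubd had the lowest called value, -1.01, through a higher level in conventional mice given fructan (4.51 ± 0.58, against 3.53 ± 0.09 on water) and not through the germ-free mice, whose means were 3.03 and 3.06. Among B cell genes only Cd79b was called (log2 0.63): its conventional means were 5.19 on water and 4.99 on fructan, both above the germ-free means of 4.37 and 4.81. For Ms4a1 the difference was log2 0.64 (95% interval -0.04 to 1.32), with conventional means of 3.75 ± 0.08 and 3.94 ± 0.14, and for Fgf15 it was -1.73 (95% interval -3.36 to -0.10), with conventional means of 9.32 and 9.06. Neither passed the call, and both intervals leave a wide range. The highest called values were those of Pcdh19 (0.83), Olfr464 (0.73) and Slc22a20 (0.70).

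**Figure D5:**
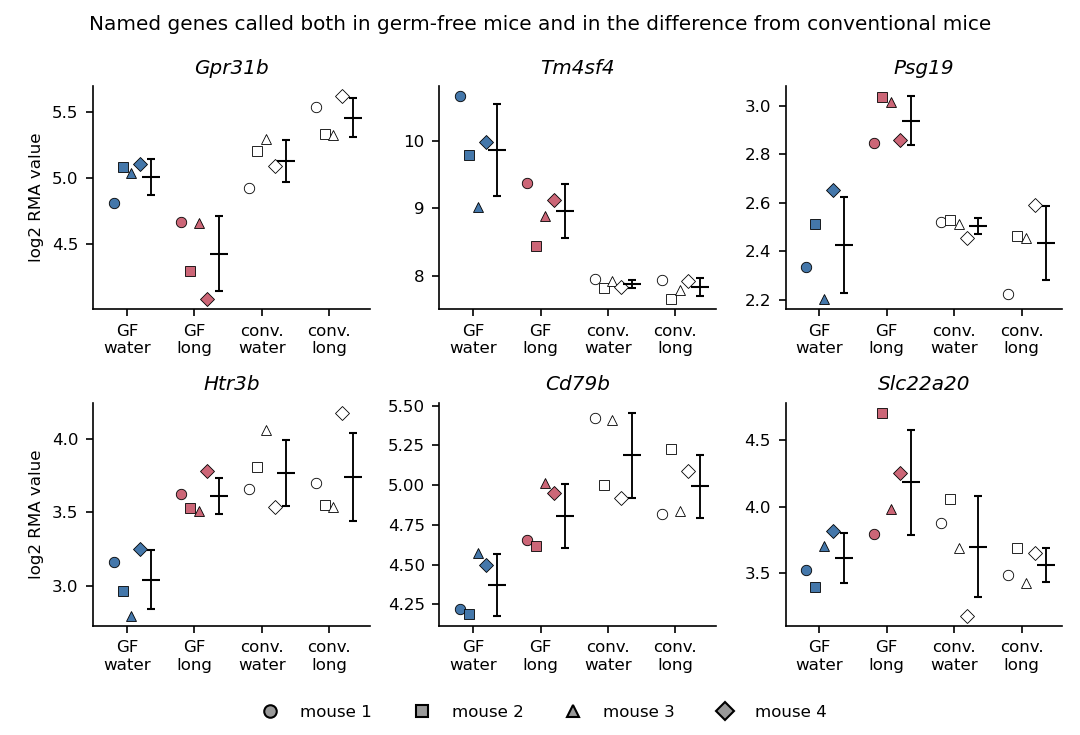
Log2 RMA values of the 6 named genes called both in germ-free mice and in the difference between germ-free (filled) and conventional (open) mice, on water and on long-chain fructan; symbols are mice, bars mean and SD (n = 4). Gpr31b is lower on fructan in the germ-free group, where the groups do not overlap, and higher in the conventional group; Tm4sf4 is lower in conventional mice than in any germ-free mouse, and Psg19, Htr3b, Cd79b and Slc22a20 are higher on fructan in germ-free mice.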

How the data were processed

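RNA from the terminal ileum was hybridized to Affymetrix Mouse Gene 1.1 ST arrays, 1 per mouse, 4 per group. The deposited values are log2 expression per probe set, made by the authors with robust multi-array averaging (RMA, per the submitters' processing notes; version not given in the sources used here), which corrects background and makes the distributions of all arrays alike, so a shift shared by most genes cannot be seen. Counts of reads do not exist for arrays, and the number of mice limits the precision.

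The study's methods name a remapped probe set definition based on Entrez genes, while the deposited identifiers match the manufacturer's probe sets, so a gene's value here may rest on other probes than in the study. Of 35556 probe sets, 21218 carried 1 gene symbol in the platform annotation, 1881 several and 12457 none. The brightest single-symbol probe set stood for each of 18820 genes. Means of the 6 groups were fitted to the 24 arrays with limma 3.58.1 (R 4.3.3) and an intensity-trended empirical Bayes prior, close to the intensity-based test of the study's methods. P-values were two-sided and adjusted by Benjamini-Hochberg over all genes. The labels call the samples separate mice, and whether mice shared a cage is not given in the sources used here. Values for single genes were also tested by exact permutation over the 70 divisions of 8 mice, with 0.0286 the smallest p. Groups overlap where any mouse of the lower group is at or above one of the higher group.

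Named genes were those the study names, the 15 highest and 15 lowest called genes, called list members, up to 3 members of smallest p per list, and the 3 highest and 3 lowest calls of the other comparisons; others are marked as picked after their values were seen. The genes, lists and comparisons were chosen with earlier results of these data known. Code was tested on simulated data. Alternatives covered the prior, arrays fitted, cyclic loess, array weights, dim genes, probe set choice, a replicate block, the fold threshold and each mouse. Sequences and positions come from RefSeq on GRCm38.p6. Python 3.11.15 was used for the other steps.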

Additional observations from a re-analysis of the deposited data

Results flagged for a closer look

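In 6 of 158 groups of 4 mice, 1 mouse stood apart from the other 3 by Dixon's ratio of gap to range, above its 95% critical value for 4 samples; chance alone gives about 1 in 20 such groups. The ratio was 0.91 for Apoc2 in water mice, through the low value of water mouse 3, and 0.844 for Slc28a2 in water mice, through the high value of water mouse 1. For Cyp3a13 it was 0.921 in long-chain mice, where mouse 1 was at 9.16 and the other 3 between 9.07 and 9.08. Among list levels in long-chain mice it was 0.856 for germinal centre B cell genes (mouse 4 highest), 0.862 for bile acid transport and FXR genes (mouse 1 highest) and 0.908 for fibroblast and endothelium genes (mouse 4 lowest).

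The response to long-chain fructan differed between germ-free and conventional mice by the interaction test, at an unadjusted p under 0.01, for 9 of the named genes, and none of these passed the adjusted threshold. This count was fixed by the choice of names, since 6 of the 9 were named as the 3 highest and 3 lowest calls of this same test. Over all genes 100 were called (0.531%), and 115 had an unadjusted p under 0.01, against 188.2 by chance. The germ-free minus conventional difference in log2 fold change was -1.009 for Ubd, -0.907 for Gpr31b and -0.846 for Tm4sf4. It was 0.584 for Psg19, 0.593 for Htr3b, 0.631 for Cd79b, 0.705 for Slc22a20, 0.733 for Olfr464 and 0.827 for Pcdh19. For Ubd, Olfr464 and Pcdh19 the germ-free comparison itself was not called (log2 -0.03, 0.20 and 0.21), and the conventional one was (0.98, -0.54 and -0.62).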

How the results depend on the processing

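With 4 mice per group and no gene past the adjusted threshold, single calls depended on single mice: of 40 called named genes, 30 lost the call when some 1 mouse was left out, and 20 kept it under every other alternative. The number of called genes against water was 161 and ranged from 116 (without water mouse 1) to 287 (without long-chain mouse 1), with 271 without water mouse 3, when 3 genes passed the adjusted threshold. For the interaction of fructan with microbial status the range was 73 to 147, and for long-chain against short-chain 184 to 455, the highest without long-chain mouse 1, when 9 genes passed the adjusted threshold. With dim genes left out the 3 counts were 75, 34 and 124. The count against water was 97 when only the 8 arrays compared were fitted, and 459 without the fold threshold, where the long-chain against short-chain count was 667. The cause of these shifts was not tested beyond the fewer genes or samples.

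After cyclic loess normalization the split of higher and lower calls was 52 and 75 against water (as reported, 79 and 82), 39 and 47 for the interaction (as reported, 65 and 35), and 99 and 122 for long-chain against short-chain (as reported, 139 and 126). Mice with the same replicate number in the water and long-chain groups deviated together with r = 0.07, -0.04, 0.18 and -0.02. The highest r of each water mouse with a long-chain mouse of another number was 0.11, 0.06, 0.0 and 0.1. Only water mouse 3 was thus most alike to its own number, and pairing was not tested further. With the replicate block the counts were 153, 95 and 269.

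Direction changed for 4 named genes, none of them called against water. Gprc5a was -0.03 and became 0.005 under cyclic loess, 0.036 with array weights and between -0.272 and 0.073 with each mouse left out, positive without any 1 of 6 mice. Over the same settings Ighg3 ranged from -0.429 to 0.335 and Ighm from -0.573 to 0.116, positive without water mouse 2, and Ubd from -0.147 to 0.072, positive without long-chain mouse 3.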

Other observations

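A second probe set shared by the lambda genes Iglc1, Iglv2 and Iglv1 was at 4.78, 4.67, 3.85 and 4.63 in water mice 1 to 4 and 3.86, 3.92, 3.71 and 4.39 in long-chain mice 1 to 4 (log2 difference -0.51, exact two-sided permutation p = 0.114). Water mice 1, 2 and 4 were again above all long-chain mice. In short-chain mice 1 to 4 it was at 3.66, 3.90, 4.73 and 3.28.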
